A study of Mus musculus with 127 samples.

Results

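Chromosome 7 was followed through 10 single nuclei of F123 mouse embryonic stem cells. Its members were taken by name, as every 10 kb window listed under chromosome 7 in the 20 files of positions, and 66754 of the 1222168 listed windows (5.89% of the 1132618 autosomal windows) belonged to it. The windows ran over chr7:3000001-145350000 of the mm10 build, a stretch of 14235 windows of 10 kb. A cell listed between 2193 chromosome 7 windows (Cell39) and 11808 (Cell25), with the windows of its 2 files added. F123 is an embryonic stem cell line of the cross CAST x 129, so its maternal and paternal chromosomes differ in sequence. Cells were untreated, grown with LIF on feeder cells and passaged off the feeders before use, and 122 slices of 10 cells, 4 positive controls and 1 negative control were sequenced. Cell25, Cell26, Cell27, Cell28, Cell38 and Cell39 came from batch B18F and were cut into 7 to 15 slices each, and Cell17, Cell18, Cell19 and Cell20 came from batch B16F and were cut into 12 to 23. The controls have no file of positions here.

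Sequential genome architecture mapping is a method in which a frozen nucleus is cut into consecutive sections (nuclear profiles), each of which is amplified and sequenced separately. A window that is sequenced from a slice can be given that slice's place on the cutting axis. The listed positions were not all of this kind. A regular grid with steps of 0.2 axis units was taken here as the slice positions. A median of 72.4% of the listed chromosome 7 windows lay on it, from 55.7% in Cell38 to 93.3% in Cell39. The origin of the positions off the grid was not tested, and the results below use all positions unless stated. Each cell has 2 files, numbered 0 and 1, and what the numbers stand for is not given in the sources used here. In interphase nuclei each chromosome fills a territory of its own, within which gene-dense stretches are known to lie apart from gene-poor stretches. Mouse chromosome 7 carries several imprinted clusters, in which genes are expressed from the maternal or the paternal copy alone, the beta-globin locus, and large arrays of olfactory and vomeronasal receptor genes, which are kept silent outside sensory neurons. With 14.2 protein-coding genes per Mb in the RefSeq table it had the highest gene density of the 19 autosomes, while it was number 7 of them in length.

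Promoters of chromosome 7 serve here as examples of windows with and without a position. The table of RefSeq promoters (GRCm38.p6, 250 bases before to 50 bases after the gene start) held 2790 promoters in the stretch covered here. The 6 below were chosen after their values were seen, to show windows located in few and in many cells, from 0 to 7 of 10, and capitals mark CG, a letter pair that reads the same on both strands. The windows of the first 2 were located in no cell. Mkrn3 encodes a paternally expressed ring-finger protein of the imprinted cluster that also holds Ndn, and Cebpa encodes a transcription factor of fat, liver and myeloid cells. The third window was located in 2 cells and holds a start of Dlg2, a scaffold protein of neuronal synapses, 2 further starts of which lie in windows located in 5 and 7 cells. The last 3 windows were located in 7 cells each. Atp10a encodes a phospholipid flippase, Hbb-bt an adult beta-globin, and Obox1 an oocyte-specific homeobox factor.
Mkrn3, chr7:62420104-62420403, minus strand, 15 CG: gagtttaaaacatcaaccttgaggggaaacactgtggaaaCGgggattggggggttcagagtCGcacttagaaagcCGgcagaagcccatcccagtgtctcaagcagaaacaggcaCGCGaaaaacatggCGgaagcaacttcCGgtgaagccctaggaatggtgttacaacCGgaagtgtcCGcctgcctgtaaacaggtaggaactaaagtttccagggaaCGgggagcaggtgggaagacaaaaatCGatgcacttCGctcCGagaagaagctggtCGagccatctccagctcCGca
Cebpa, chr7:35119043-35119342, plus strand, 29 CG: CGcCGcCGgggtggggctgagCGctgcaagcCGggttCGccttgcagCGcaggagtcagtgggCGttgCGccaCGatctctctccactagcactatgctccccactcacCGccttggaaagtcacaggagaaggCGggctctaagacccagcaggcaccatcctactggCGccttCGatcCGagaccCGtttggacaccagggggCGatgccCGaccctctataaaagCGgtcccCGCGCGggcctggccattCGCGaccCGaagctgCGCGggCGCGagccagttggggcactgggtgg
Dlg2, chr7:91090536-91090835, plus strand, 3 CG: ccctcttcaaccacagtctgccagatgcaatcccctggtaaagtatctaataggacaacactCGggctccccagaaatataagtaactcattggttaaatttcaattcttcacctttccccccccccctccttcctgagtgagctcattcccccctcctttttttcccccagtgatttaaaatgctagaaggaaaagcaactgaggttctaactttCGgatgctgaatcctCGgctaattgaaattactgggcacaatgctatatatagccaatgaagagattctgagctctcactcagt
Atp10a, chr7:58657952-58658251, plus strand, 20 CG: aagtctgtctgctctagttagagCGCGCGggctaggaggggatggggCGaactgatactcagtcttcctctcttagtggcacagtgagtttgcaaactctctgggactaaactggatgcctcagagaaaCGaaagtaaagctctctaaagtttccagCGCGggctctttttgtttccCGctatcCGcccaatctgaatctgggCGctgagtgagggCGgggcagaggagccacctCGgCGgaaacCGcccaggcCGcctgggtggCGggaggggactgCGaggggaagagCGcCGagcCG
Hbb-bt, chr7:103813874-103814173, minus strand, 1 CG: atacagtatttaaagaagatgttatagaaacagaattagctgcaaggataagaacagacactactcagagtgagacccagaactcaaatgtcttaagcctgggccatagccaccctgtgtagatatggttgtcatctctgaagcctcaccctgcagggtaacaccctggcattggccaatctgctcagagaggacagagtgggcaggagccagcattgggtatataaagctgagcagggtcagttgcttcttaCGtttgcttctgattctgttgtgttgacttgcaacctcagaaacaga
Obox1, chr7:15547007-15547306, plus strand, 1 CG: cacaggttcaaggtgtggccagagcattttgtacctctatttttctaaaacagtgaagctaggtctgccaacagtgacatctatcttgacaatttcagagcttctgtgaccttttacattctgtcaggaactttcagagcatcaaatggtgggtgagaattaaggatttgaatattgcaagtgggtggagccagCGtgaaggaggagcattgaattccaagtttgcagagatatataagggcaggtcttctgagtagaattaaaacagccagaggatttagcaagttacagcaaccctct

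The number of CG pairs did not order these promoters by the number of cells. Of the 746 chromosome 7 promoters whose window was located in 0 to 2 cells, 37.1% held at least 10 CG pairs, against 41.3% of the 1565 promoters located in 3 to 5 cells and 36.3% of the 479 located in 6 to 10 cells. The share was 39.4% over all chromosome 7 promoters and 44.4% over the 28606 promoters of the other autosomes.

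How much of chromosome 7 each nucleus returned was compared first. A median of 38.6% of the chromosome 7 windows was located in either file of a cell, with a lowest value of 14.04% in Cell39 and a highest of 60.3% in Cell25, against a median of 39.3% and a range of 19.8% to 52.7% over the other 18 autosomes. The chromosome 7 values reached lower and higher than those of the other autosomes. The share of chromosome 7 was above that of the other autosomes in Cell38 (1.342 times), Cell25 (1.145 times), Cell26 (1.123 times) and Cell19 (1.044 times), and below it in the other 6, the lowest being Cell39 (0.707 times) and Cell17 (0.770 times). Chromosome 7 ranked first of the 19 autosomes in Cell38 and last in Cell17. The difference averaged −0.05 ± 0.28 on the log2 scale (SD, n = 10 cells, higher in 4 of 10), which did not pass the exact sign-flip permutation test over cells (p = 0.592, adjusted p = 0.703 over the 19 autosomes, two-sided). Among the 19 autosomes, 0 passed (0%), and 1 had an unadjusted p under 0.05. With 10 cells this test cannot give a p under 0.00195, or under 0.0371 for a single chromosome after adjustment. In batch B18F the difference was 0.01 ± 0.32 (n = 6) and in batch B16F −0.14 ± 0.19 (n = 4). The labels do not give the number of cultures, so each p-value here refers to the variation among these 10 nuclei, and the read depth behind the positions is unknown.

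**Figure D1:**
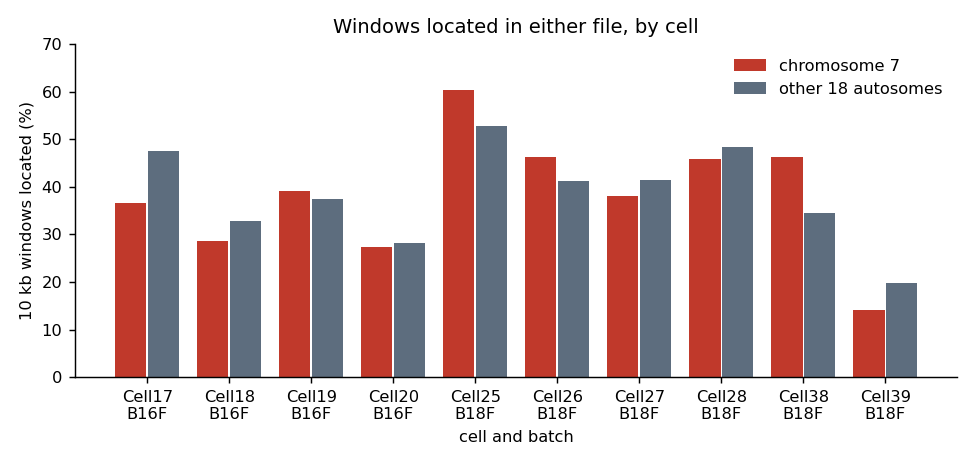
Share of 10 kb windows located in either file (vertical axis, percent) for chromosome 7 and for the other 18 autosomes, in each of the 10 cells with its batch. Each bar is 1 cell, and the red bar stands above the grey one in Cell19, Cell25, Cell26 and Cell38.

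The same windows were not returned by every nucleus. Of the 14235 chromosome 7 windows, 534 (3.75%) were located in no cell and 199 (1.40%) in all 10, against 3.96% and 1.23% of the windows of the other autosomes. The most frequent number was 3 cells (2632 windows). The longest stretches located in all 10 cells were 5 windows at chr7:59720001-59770000 and 5 at chr7:59860001-59910000. Both lie within Snhg14, the long noncoding RNA of the Snrpn imprinted domain, over arrays of small nucleolar RNA genes that include the Snord116 copies. The part of read mapping among such copies was not tested. The longest stretch located in no cell was 10 windows at chr7:39000001-39100000, which holds no gene of the RefSeq table. Whether reads can be mapped to the windows located in no cell was not tested. Of the windows that 2 files of a cell shared, the most recurrent were 5 windows shared in 6 cells each.

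Coverage also varied along the chromosome. The proximal stretches were the fullest: 45.9% ± 15.2 of the windows were located at 3 to 10 Mb, 44.0% ± 14.3 at 10 to 20 Mb and 44.1% ± 19.4 at 20 to 30 Mb (SD, n = 10), and these values were above the cell's own chromosome 7 average in 8, 9 and 8 of 10 cells. They include the V1 receptor clusters described further on. The emptiest stretch was 90 to 100 Mb with 33.7% ± 12.6, above the average in 1 of 10 cells. Between cells the profile varied, since Cell26 returned 69.9% of its windows at 100 to 110 Mb and 36.9% at 20 to 30 Mb, while Cell28 returned 34.4% and 76.9% of the same stretches. Cell26 and Cell28 were thus the reverse of each other at these places.

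Single bins of 1 Mb were then set against the average autosomal bin of the same cell, on the log2 scale with a pseudocount of 1 window, in a limma fit over all 2394 full autosomal bins. The fit called 161 of these (6.73%), 24 higher (1%) and 137 lower (5.72%), at a Benjamini-Hochberg adjusted p under 0.05. On chromosome 7 it called 3 of 142 bins (2.11%), 1 higher and 2 lower. At an unadjusted p under 0.05 the shares were 21.1% of the chromosome 7 bins and 21.6% of all bins. The median bin of chromosome 7 lay at −0.11, and the median bin of the other autosomes at −0.08, so a typical bin was below the average on this scale. Single cells moved these counts: without Cell38 the fit called 6 bins of chromosome 7, and over all autosomes it called 77 bins without Cell27, 96 without Cell18 and 106 without Cell25.

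The bin at chr7:15000001-16000000 was the only chromosome 7 bin called higher. It held a median of 60.5 located windows per cell, with 33 in Cell39 as the lowest and 86 in Cell25 as the highest, against a mean of 38.4 over all autosomal bins and cells. All but 1 cell exceeded their own average. The difference was 0.65 ± 0.14 (SE, limma adjusted p = 0.00484), and the call held with each cell left out. The bin has 10 protein-coding genes, of which Obox1, Obox2 and Obox3 lie nearest its centre, and 32 pseudogenes. Sequence copies of this kind can share reads, and the part of read mapping in its coverage was not tested.

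The bin at chr7:91000001-92000000 was lower, with a median of 25 located windows, 7 in Cell39 and 56 in Cell26. The difference was −0.67 ± 0.16 (SE, limma adjusted p = 0.0111), with 2 of 10 cells above their average, and the call held with each cell left out. Its single protein-coding gene is Dlg2, a promoter of which is printed above. The bin at chr7:77000001-78000000, which has no protein-coding gene, was below the average in all 10 cells, with a median of 29 windows and a range of 11 to 39. Its difference of −0.44 ± 0.14 (SE, limma adjusted p = 0.0487) lost the call when any of 9 cells was left out, with adjusted p up to 0.132, and with batch as a block (limma adjusted p = 0.0726). The bin at chr7:59000001-60000000, which holds the Snhg14 stretches and Ube3a, was above the average in all 10 cells, with a median of 53 windows and a range of 22 to 72. At 0.36 ± 0.14 (SE, limma adjusted p = 0.109) it did not pass. The windows of Ube3a itself were located in 29% of cases over windows and cells, beside 38.2% for all chromosome 7 windows. The Snhg14 stretches hold arrays of gene copies, and the part of read mapping in the coverage of this bin was not tested.

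**Figure D2:**
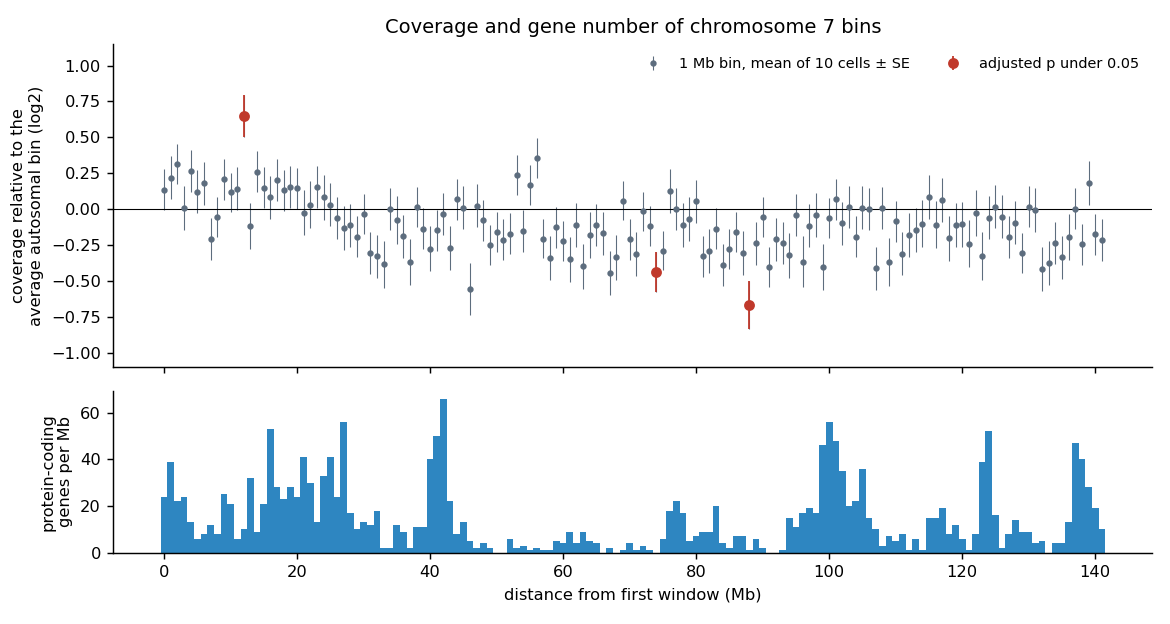
Upper panel: coverage of each 1 Mb bin of chromosome 7 relative to the average autosomal bin (log2, mean of 10 cells with its SE) against the distance from the first window. Lower panel: protein-coding genes per bin. The 3 bins called at an adjusted p under 0.05 are in red, at 0.65, −0.44 and −0.67.

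Gene-dense and gene-poor segments of chromosome 7 were compared within each cell. The 47 gene-dense bins held 16 to 66 protein-coding genes each (1455 genes, of which 357 were olfactory or vomeronasal receptor genes), and the 48 gene-poor bins held 0 to 5 (108 genes). Of the gene-dense bins, 25 lay under 50 Mb, 5 between 50 and 100 Mb and 17 beyond, against 4, 33 and 11 of the gene-poor bins. Coverage was 40.6% ± 14.6 in gene-dense bins and 35.8% ± 11.2 in gene-poor bins (SD, n = 10). The ratio of the gene-dense to the gene-poor share was highest in Cell28 (1.46) and Cell25 (1.27), and it was under 1 in Cell17, Cell18 and Cell38. The log2 difference was 0.16 ± 0.19 (SD, n = 10, higher in 7 of 10 cells). The exact sign-flip permutation test gave p = 0.0215 and an adjusted p of 0.0859 over the 4 gene-density results, which misses the threshold. Without Cell18 it was 0.18 (exact sign-flip permutation p = 0.0195, adjusted p = 0.0391). Without Cell17 it was 0.19 (exact sign-flip permutation p = 0.0156, adjusted p = 0.0625). Leaving out Cell18 thus hardly moved the unadjusted p. The p of another of the 4 results, the sharing of windows between files, fell to 0.00391 without Cell18 (exact sign-flip permutation). When receptor genes were not counted the coverage difference was 0.08 ± 0.19 (exact sign-flip permutation p = 0.203, adjusted p = 0.271) and differed from the contrast of the other autosomes by −0.03 ± 0.18. In batch B18F the difference was 0.25 ± 0.19 (n = 6) and in batch B16F 0.04 ± 0.10 (n = 4). The contrast exceeded that of the other autosomes by 0.04 ± 0.22 (exact sign-flip permutation p = 0.541), and chromosome 7 ranked number 5 of the 19 autosomes in it. Over the 142 bins the rank correlation of gene number and located windows ran from −0.08 in Cell17 to 0.44 in Cell28 and lay above 0 in 8 of 10 cells. These bins share their slices and libraries, so the correlations are descriptions. Windows of the protein-coding genes themselves were located in 36.3% of cases, beside 38.2% for the whole chromosome, and were above it in 1 of 10 cells. The contrast of bins is thus not one of windows with and without genes.

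The place of chromosome 7 on the cutting axis differed from nucleus to nucleus. On a scale from the lowest autosomal position of a cell (0%) to the highest (100%), the mean of the chromosome 7 bins was 28.7% in Cell26, 38.6% in Cell28, 42.5% in Cell17, 42.7% in Cell38 and 42.9% in Cell20. It was 47.3% in Cell18, 54.0% in Cell19, 56.6% in Cell25, 57.8% in Cell27 and 92.5% in Cell39. Cell39 stands apart from the others here, and the other autosomes of that cell averaged 87.9% as well. In Cell39, 61.5% of the chromosome 7 windows that lie on the grid of slice positions were at the last of 11 positions, and 92.2% at the last 2. At the other end, the fullest position of Cell17 held 14.1% of them.

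How far bins lay from the middle of a cell's axis was ranked over all its autosomal bins and given as a percentile. The mean percentile of chromosome 7 bins had a median of 52.9 over cells, with 34.2 in Cell38 as the lowest and 61.5 in Cell26 as the highest, against 49.3 to 51.0 for the other autosomes. Chromosome 7 lay farther out by 12.2 points in Cell26 and 9.59 points in Cell19, and nearer to the midpoint by 16.9 points in Cell38. The difference averaged 0.40 ± 8.67 points (SD, n = 10, farther out in 6 of 10 cells) and did not pass (exact sign-flip permutation p = 0.891, adjusted p = 0.959), as did 0 of the 19 autosomes (0%), 2 of which had an unadjusted p under 0.05. It was −1.83 ± 10.2 in batch B18F and 3.73 ± 5.28 in batch B16F. The limma fit of single bins called 0 of 2394 autosomal bins (0%) and 0 of 142 on chromosome 7, where 2.11% had an unadjusted p under 0.05, against 4.804% of all bins. Gene-dense bins averaged 50.1 ± 7.22 and gene-poor bins 50.4 ± 9.15, a difference of −0.33 ± 5.78 (SD, n = 10, exact sign-flip permutation p = 0.873, adjusted p = 0.873).

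The path of the chromosome from its proximal to its distal end was read in stretches of 10 Mb, over the bins of both files together. Cell19 had the widest path. Its stretch at 3 to 10 Mb averaged 24.1% of the axis, the stretches from 30 to 80 Mb lay between 62.3% and 65.2%, and the distal end, beyond 140 Mb, reached 75.8%, a range of 51.7 points. Cell26 had a path of 32.7 points, with its low point of 12.05% at 100 to 110 Mb and its high point of 44.7% at the distal end. That low stretch was also the best covered of Cell26. The 2 lowest grid positions of this cell held 66.7% of its chromosome 7 windows that lie on the grid. The paths of Cell25 and Cell28 spanned 21.1 and 20.9 points. Cell28 had its low point of 25.05% at 3 to 10 Mb, and further low stretches at 20 to 30 Mb (25.7%) and at 110 to 120 Mb (29.1%). In the other 6 cells the path spanned 7.09 (Cell39) to 17.3 points (Cell20).

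**Figure D3:**
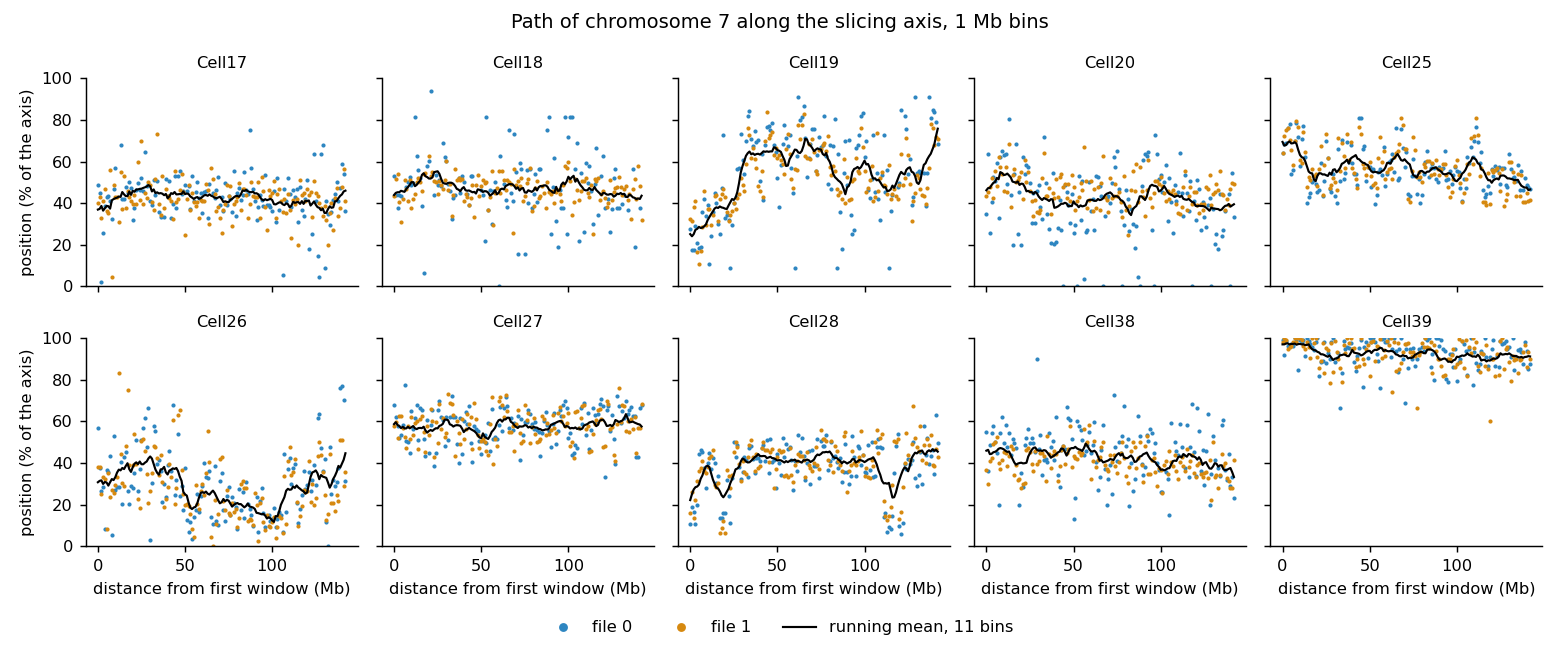
Position of chromosome 7 bins of 1 Mb on the cutting axis (vertical axis, percent of the cell's axis) against the distance from the first window, with 1 panel per cell, points for file 0 and file 1, and a running mean of both. The path spans 51.7 points between stretches of 10 Mb in Cell19 and 7.09 points in Cell39.

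The spread of the chromosome along the axis was compared with that of the other autosomes. The SD of bin positions was 0.252 ± 0.112 axis units on chromosome 7 and 0.239 ± 0.0824 on the other autosomes (SD, n = 10). The authors name no unit for the axis. Chromosome 7 had the widest spread of the 19 autosomes in Cell19 (1.28 times the others) and the narrowest in Cell27 (0.770 times), while Cell39 had the lowest ratio, 0.569. The log2 ratio was 0.02 ± 0.36 (wider in 8 of 10 cells; exact sign-flip permutation test, p = 0.875, adjusted p = 0.978), and 0 of 19 autosomes passed (0%), 3 of them having an unadjusted p under 0.05. Without Cell39 it was 0.11 (exact sign-flip permutation p = 0.156, adjusted p = 0.424). In batch B18F the log2 ratio was −0.09 ± 0.42 (n = 6), and in batch B16F it was 0.19 ± 0.15, wider in 4 of 4 cells (exact sign-flip permutation p = 0.125, the smallest that 4 cells allow).

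Bins 1 Mb apart differed by 0.223 ± 0.113 axis units on chromosome 7 and by 0.217 ± 0.0819 on the other autosomes (log2 ratio −0.01 ± 0.24, exact sign-flip permutation p = 0.824, adjusted p = 0.824, n = 10). None of the 19 autosomes passed there (0%), and 2 had an unadjusted p under 0.05. Bins 50 Mb apart differed by 0.283 ± 0.130 on chromosome 7 and by 0.271 ± 0.0910 on the other autosomes (log2 ratio 0.00056 ± 0.32, exact sign-flip permutation p = 0.996, adjusted p = 0.996, n = 10). At 50 Mb the log2 ratio was −0.13 ± 0.34 in batch B18F and 0.19 ± 0.19 in batch B16F, above 0 in 4 of 4 cells of the second batch. One of 19 autosomes passed at 50 Mb (5.26%), which was chromosome 6, with a ratio below 0 on the log2 scale in all 10 cells.

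Distances were shortest between neighbouring bins. Distances within a file were divided by the distance between the chromosome's bins of 1 file and other autosomes' bins of the other file. An offset between the files thus enters the divisor alone, and its part in these ratios was not tested. On this scale, bins separated by 1 Mb had 0.718 ± 0.116 and bins separated by 2 Mb had 0.801 ± 0.103 (SD, n = 10). Beyond that the ratio changed little, with 0.862 ± 0.104 for 5 Mb, 0.871 ± 0.111 for 10 Mb and 0.859 ± 0.105 for 20 Mb. All 10 cells were under 1 for each of these separations. Bins 50 Mb apart had 0.919 ± 0.139, with 8 cells under 1, and bins 100 Mb apart had 0.941 ± 0.172, with 6 cells under 1. The other autosomes ran from 0.721 ± 0.0698 at 1 Mb to 0.927 ± 0.0475 at 100 Mb. The difference between chromosome 7 and the others did not pass at any of the 7 separations (exact sign-flip permutation, lowest p = 0.697, all adjusted p = 0.957).

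**Figure D4:**
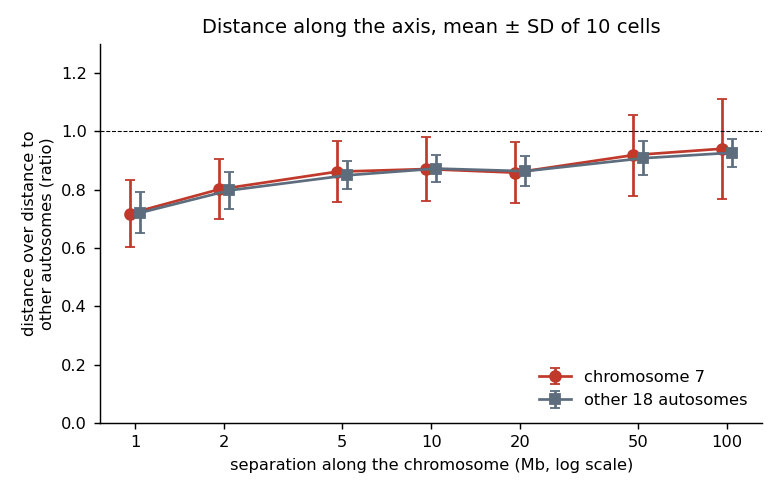
Distance along the axis between bins of the same chromosome within a file (vertical axis), against separation along the chromosome (Mb, log scale). It is given as a ratio to the distance to bins of other autosomes in the other file. Points are means of 10 cells with SD, and chromosome 7 runs from 0.718 at 1 Mb to 0.941 at 100 Mb.

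Pairs of gene-dense bins 5 to 50 Mb apart lay 0.257 ± 0.112 axis units from each other, and pairs of gene-poor bins 0.264 ± 0.112. The log2 ratio was −0.05 ± 0.19 (above 0 in 3 cells; exact sign-flip permutation p = 0.471, adjusted p = 0.628). Set against the other autosomes it was −0.11 ± 0.18 (exact sign-flip permutation p = 0.082).

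How the 2 files of a cell relate to each other was examined next. File 1 listed a median of 27.7% of the chromosome 7 windows (7.24% in Cell39 to 47.8% in Cell25) and file 0 a median of 17.1% (7.65% in Cell20 to 35.2% in Cell25). The files shared between 195 windows (Cell39) and 3218 (Cell25). This was 1.63 ± 0.43 times the number expected from the sizes of the 2 files on chromosome 7, above 1 in all 10 cells, with a lowest ratio of 1.23 in Cell17 and a highest of 2.41 in Cell20. The other autosomes had 1.61 ± 0.36. The log2 difference of 0.0057 ± 0.11 did not pass (exact sign-flip permutation p = 0.875, adjusted p = 0.875), while 3 of the 19 autosomes did (15.8%). Of the shared chromosome 7 windows, a median of 52.0% had the same position in both files within 1e-06 axis units, from 6.98% in Cell38 to 82.1% in Cell39.

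Windows listed in 1 file alone came in runs of that file. Of neighbouring pairs of such windows, 91.8% ± 5.995 were in the same file, where the file sizes give 59.7% ± 10.4 (n = 10). The excess was 32.2 ± 9.27 points on chromosome 7 and 31.7 ± 9.55 points on the other autosomes. Their difference of 0.54 ± 1.89 points did not pass (exact sign-flip permutation p = 0.373, adjusted p = 0.858), and 1 of 19 autosomes did (5.26%). Runs were long in Cell18, where 165 runs made up the chromosome and the longest spanned 9.87 Mb (chr7:98690001-108560000, file 1). They were short in Cell27, with 1639 runs and a longest of 0.87 Mb.

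Positions in file 0 and file 1 at the same 1 Mb bin were 0.212 ± 0.122 axis units apart, against 0.302 ± 0.115 between chromosome 7 bins of one file and other autosomes' bins of the other. The ratio of these distances was under 1 in 9 of 10 cells, with a median of 0.557, a lowest of 0.445 in Cell25 and a highest of 1.01 in Cell20. The rank correlation of the 2 files along the chromosome was 0.79 in Cell25, 0.72 in Cell19, 0.71 in Cell26 and 0.64 in Cell28. It was lowest in Cell20 (0.07). Each correlation was taken over 115 to 143 bins that share slices. Cell25, Cell19, Cell26 and Cell28 had the widest paths. They also had the most windows shared between the files (3218, 1178, 2223 and 1724). Shared windows enter the bin positions of both files. Their part in these correlations and in the ratios under 1 was not tested. Against the other autosomes the log2 ratio differed by 0.0099 ± 0.19 (exact sign-flip permutation p = 0.881, adjusted p = 0.930), and 2 of 19 autosomes passed (10.5%).

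How often the files shared a window in gene-dense bins depended on whether receptor genes were counted. Over gene-dense bins the shared windows were 1.63 ± 0.44 times the expected number and over gene-poor bins 1.71 ± 0.46 times, a log2 difference of −0.06 ± 0.16 (higher in 1 of 10 cells, exact sign-flip permutation p = 0.236, adjusted p = 0.473). This was 0.17 ± 0.19 below the contrast of the other autosomes (exact sign-flip permutation p = 0.0332, adjusted p = 0.133). Cell18 stood alone with a positive value of 0.332, and without it the contrast was −0.11 (exact sign-flip permutation, adjusted p = 0.0156). When olfactory and vomeronasal receptor genes were not counted as genes, the direction turned. The 48 bins then gene-dense had 1.77 ± 0.52 times the expected number and the 53 gene-poor bins 1.48 ± 0.35 times, a log2 difference of 0.24 ± 0.19 with the same sign in all 10 cells (exact sign-flip permutation p = 0.00195, the smallest possible, adjusted p = 0.00781). Under this count the gene-poor class held 11 receptor-rich bins with 171 receptor genes in the class, and the gene-dense class 7 such bins with 126. Against the other autosomes under the same count, that contrast differed by 0.11 ± 0.19 (exact sign-flip permutation p = 0.0957).

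Receptor-rich bins were then described on their own, with a limit chosen after the values were seen and therefore without a test. Their part in the change of sign was not tested, and the sign also turned when all genes but pseudogenes were counted (0.10). The 24 bins with at least 5 receptor genes held 402 of the 415 receptor genes, and 17 of them were among the gene-dense bins. In these bins the files shared 1.09 ± 0.25 times the expected number of windows, from 0.671 in Cell17 to 1.46 in Cell20, against 1.75 ± 0.49 times in the other 118 bins (SD, n = 10). With the expected number taken per 1 Mb bin the ratios were 1.235 ± 0.2923 and 1.736 ± 0.5061, so the level depends on how bins were pooled. The receptor-rich bins were below the rest of chromosome 7 in all 10 cells. Of their windows 41.2% ± 13.5 were located, against 37.7% ± 12.8 in the other bins, higher in 9 of 10 cells. In Cell38 the shares were 41.96% and 47.2%. Windows of the genes themselves were located in 33.0% of cases for olfactory, 34.2% for V1 and 38.6% for V2 receptors, as given with the gene families. The part of coverage in the sharing was not tested. The 30 remaining gene-dense bins had 1.86 ± 0.57 times the expected number. On the 15 other autosomes with such bins (57 bins) the ratio was 1.31 ± 0.23 in receptor-rich bins and 1.60 ± 0.35 elsewhere, also lower in all 10 cells.

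The clusters were not alike. The 4 bins at chr7:20000001-24000000, with 85 vomeronasal receptor genes of the V1 family, shared 148 windows over the 10 cells where 245 were expected, a ratio of 0.605. The 9 bins at chr7:5000001-14000000, with 35 V1 genes, 29 V2 genes and 8 olfactory genes, shared 547 against 559 (0.979). The 7 bins at chr7:102000001-109000000, with 193 olfactory receptor genes, shared 592 against 475 (1.25). The other 3 clusters had higher ratios. The single bin at chr7:42000001-43000000, with 5 V2 genes, had 1.54, and was below the rest of chromosome 7 in 5 of 10 cells. The bins at chr7:85000001-87000000, with 15 olfactory and 13 V2 genes, had 1.40 (8 of 10 cells), and the bin at chr7:140000001-141000000, with 19 olfactory genes, had 1.46 (3 of 10 cells). The V1-rich clusters were below the rest of chromosome 7 in all 10 cells, and the large olfactory cluster in 7 of 10. The expected numbers were pooled over the bins of a cluster, so the levels depend on the pooling here too. In Cell38 the longest run of 1 file (chr7:20720001-24070000, file 1) overlapped the cluster of 85 V1 genes. The part of such runs in the ratios was not tested.

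**Figure D5:**
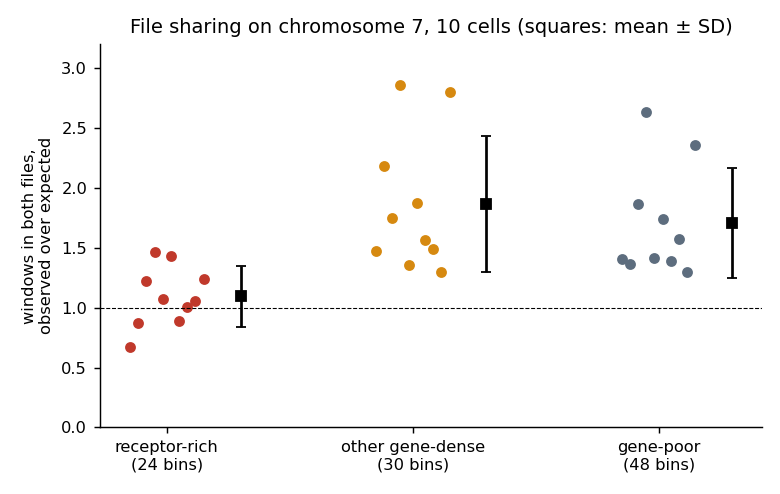
Windows listed in both files of a cell over the number expected from the file sizes (vertical axis), in receptor-rich, other gene-dense and gene-poor bins of chromosome 7. Each point is 1 cell, squares are means with SD, and the means are 1.09, 1.86 and 1.71.

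Imprinted genes were followed one by one, with their coordinates in the RefSeq table. A gene counts as located where at least 1 of its windows was, so long genes are located more often. Of the 19 imprinted genes, the median gene was located in 6 of 10 cells. In the proximal cluster, Peg3 (a zinc finger protein, paternally expressed) spans 4 windows at chr7:6703892-6730462 and was located in 5 cells. Its neighbour Usp29 has 24 windows and was located in all 10, in both files of 9. Zim1 was located in 7 cells.

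In the cluster known from Prader-Willi and Angelman syndromes, Snrpn (a splicing protein, 48 windows at chr7:59982495-60450177) was located in all 10 cells and Ube3a (a ubiquitin ligase, 10 windows) in 9. Atp10a was located in 9 cells, Magel2 in 6 and Ndn in 3. Mkrn3, whose promoter is printed above, has 2 windows at chr7:62417593-62420153 and was located in none. The bin of Ube3a averaged the 63.0 ± 23.2 percentile of distance from the midpoint, and that of Ndn, Magel2 and Mkrn3 37.3 ± 25.4 (SD, n = 10). The difference between them was not tested, and the limma fit called neither bin.

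In the distal cluster, H19 (a noncoding RNA of 1 window) was located in 4 cells and Igf2 (a growth factor, 2 windows at chr7:142650768-142666816) in 8, both of them in both files of 2 cells. Ins2 was located in 4 cells and Ascl2 in 3. Kcnq1 (a potassium channel) and the noncoding Kcnq1ot1 that lies within it were located in all 10 cells, in both files of 7 and 2 cells. Cdkn1c, a cell cycle inhibitor, was located in 6 cells, and Phlda2, Cd81 and Nap1l4 in 5 each. The bins of the distal cluster averaged the 51.0 ± 20.3 and the 52.5 ± 21.2 percentile.

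Genes of early embryo and stem cells were located in 2 to 6 cells. Zscan4c and Zscan4d, which mark a transient state of embryonic stem cells that resembles the early cleavage embryo, were located in 5 cells each and Zscan4f in 6, in a bin at the 59.0 ± 28.7 percentile. Trim28, a corepressor that silences transposons, was located in 6 cells and Utf1, a pluripotency factor, in 4. Of the neighbours Fgf3, Fgf4 and Ccnd1, the growth factor genes were located in 6 and 4 cells and the cyclin gene in 2. Among the other genes, Tyr, Oca2 and Igf1r, which span 8 to 31 windows, were located in all 10 cells, Tead2 in 8, Hbb-bt in 7 and Cebpa in 3, through the second of its windows. Per window and cell, the median gene was located in 42.5% of cases among early embryo and stem cell genes, in 40.0% among the other genes and in 34.4% among imprinted genes, beside 38.2% for all chromosome 7 windows. Many of these genes have 1 or 2 windows, so such shares are coarse.

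Gene families on chromosome 7 averaged between 33.0% for olfactory receptors and 52.0% ± 31.6 for the 5 beta-globin genes, which have 5 windows and were above the chromosome in 7 of 10 cells. The windows of the 239 olfactory receptor genes were located in 33.0% ± 16.9 of cases, those of the 124 V1 genes in 34.2% ± 19.2 and those of the 52 V2 genes in 38.6% ± 12.7 (SD, n = 10). The 93 zinc finger genes had 33.8% ± 15.6, the 28 Psg and Ceacam genes (pregnancy glycoproteins and adhesion molecules) 38.03% ± 18.3, and the 26 kallikreins, secreted proteases, 34.9% ± 18.4. The 15 Cyp2 genes, which encode drug-metabolising cytochromes, had 42.1% ± 23.3 and the 19 Mrgpr genes, receptors of itch and pain neurons, 42.0% ± 21.3. Windows of all 2025 protein-coding genes had 36.3% ± 13.6, beside 38.2% for the whole chromosome, and were above it in 1 of 10 cells. The limma fit called 0 of the bins of these 9 families, beside 2.11% of all chromosome 7 bins, so this count says little about the families.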

How the data were processed

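Positions were measured by sequential genome architecture mapping in 122 slices of 10 nuclei. Per the submitters' processing notes, Trim Galore 0.6.4, Bowtie2 2.3.5, Picard and the mm10 build were used. The deposited files list, per the file headers, a chromosome, a 10 kb window and its position along the slicing axis, a value of another kind than a count, in no stated unit. How the authors made the positions is not given in the sources used here. For coverage, a window counted where either file of a cell listed it. Positions were averaged in bins of 1 Mb within each file. Spread and distances were taken per file and then averaged over the 2 files. Percentiles ranked the bins of both files together, and paths averaged the bins of both files. Genes and promoters came from the RefSeq table of GRCm38.p6, and genes placed before 3 Mb were left out.

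Each result was 1 value per cell, tested over 10 cells by an exact two-sided sign-flip permutation test (1024 sign patterns), with Benjamini-Hochberg adjustment over 19 autosomes or over the 4 gene-density results. Single bins were fitted with limma 3.58.1 in R 4.3.3 on log2(windows + 1), relative to the cell's average bin. Percentiles of distance were fitted in bins measured in at least 8 cells. Gene-dense and gene-poor bins are the upper and lower of 3 classes of bins by gene number. The tests over cells were checked on simulated data, with windows drawn independently for each file and positions for each 1 Mb bin. Runs of a file and sharing between files were not simulated. Changes were planted in coverage, midpoint distance and coverage of gene classes alone, so no planted change was checked for the other results. The limma fit was checked on bins permuted within each cell. Python 3.11.15, numpy 2.4.6, pandas 2.3.3, scipy 1.17.1 and matplotlib 3.10.9 were used.

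Named genes are fixed lists of imprinted, embryo and other genes and families by symbol, and called bins with up to 3 genes nearest the centre. The members and lists were chosen with earlier results of these data known, and the limit of 5 receptor genes per bin and the printed promoters after the values were seen. Alternatives changed the bins, the files, the centre, the autosomes compared, the gene classes, the batch and the cells. No control slices were used, since they have no positions here.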

Additional observations from a re-analysis of the deposited data

Results flagged for a closer look

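Of 44 ends of 22 sets of 10 cell values, 2 lay far from the other cells by Dixon's criterion, which chance meets in about 1 in 20 groups. In Cell39 the mean position of chromosome 7 was 92.51% of the axis, and its gap to the next cell was 0.544 of the whole range, beside a critical value of 0.466. The other autosomes of Cell39 averaged 87.9%. In Cell18 the log2 difference in file sharing between gene-dense and gene-poor bins of chromosome 7 was 0.332, with a gap of 0.612 of the range. Cell18 had the fewest chromosome 7 bins with windows in both files (115). The part of either cell's sampling in these values was not tested.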

How the results depend on the processing

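No paired analysis was possible because the replicate numbers name slices of 1 cell and tie no slice to a slice of another cell. Of 226 alternatives to the 12 results tested over cells, 167 kept the direction and side of the threshold, 56 changed sign and 3 kept the direction and passed the threshold. One of the sign changes also passed, which was file sharing of gene classes without receptor genes; the others missed the threshold. The cause was not tested. In the exact sign-flip permutation test with 9 cells, a single chromosome cannot give an adjusted p under 0.0742 on its own. With 6 and 4 cells the unadjusted p cannot go under 0.0312 and 0.125. The spread in batch B16F (0.1894) was at the limit for 4 cells. For the chromosome 7 results, keeping the side of the threshold in these settings was largely fixed in advance and is no measure of stability.

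In batch B16F alone the distance at 1 Mb was 0.1322 and the shared windows −0.01436, with a spread of 0.1894 and a distance at 50 Mb of 0.1909. In batch B18F alone coverage was 0.01366, the midpoint distance −1.826 points, the spread −0.09451, the distance at 50 Mb −0.1264 and file agreement −0.05502. Against chromosomes 5, 6, 8 and 10 the distance at 1 Mb was 0.02695. With median bin positions the midpoint distance was −1.187 and the spread −0.0101. With the window nearest the bin centre the distance at 1 Mb was 0.02891, file agreement −0.006394 and the mutual distance of gene classes 0.005616. With at least 5 windows per bin the spread was −0.02417, the distance at 50 Mb −0.01249 and file agreement −0.05114. Without windows shared by the files the midpoint distance was −0.1516, the spread −0.02105, the distance at 50 Mb −0.0266, file agreement −0.02536 and the midpoint contrast of gene classes 0.3807. File 0 alone gave 0.01332 at 1 Mb and −0.01476 at 50 Mb, and bins of 250 kb gave a file agreement of −0.00209. With the median position as centre the midpoint contrast of gene classes was 1.055. With narrower gene classes their coverage contrast was 0.1761 (exact permutation, adjusted p = 0.0391) and their mutual distance 0.002419. Without receptor genes their coverage contrast was 0.08123 and their file sharing 0.2397 (exact permutation, adjusted p = 0.00781), and with all genes but pseudogenes it was 0.1045, the midpoint contrast 0.6736 and the mutual distance 0.005623.

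With each cell left out, coverage ran from −0.1003 to 0.00235, the midpoint distance from −0.9118 to 2.317, the spread from −0.01817 to 0.1116, the distance at 1 Mb from −0.06215 to 0.04182 and at 50 Mb from −0.05177 to 0.08086. Shared windows ran from −0.0194 to 0.0224 and file agreement from −0.03197 to 0.03399. For gene classes the coverage contrast ran from 0.122 to 0.1904, the midpoint contrast from −1.165 to 0.8301, file sharing from −0.1089 to −0.0437 and the mutual distance from −0.0898 to −0.0164. Same-file adjacency ran from 0.2228 to 0.8698 points. The fit called 2 to 6 bins of chromosome 7 and 77 to 186 of all autosomes. The receptor-rich bins stayed below the rest in all 10 cells with limits of 3 or 10 receptor genes or with the expected number taken per bin, alternatives chosen after seeing the data. The read depth behind a position is unknown, so a window with no position cannot be told apart from one lost to low depth.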
